A study of Mus musculus with 2 samples.

Results

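The 10 genes described here encode enzymes that remove superoxide and peroxides in mammalian cells. They are the superoxide dismutases Sod1, Sod2 and Sod3, catalase (Cat), the glutathione peroxidases Gpx1, Gpx3 and Gpx4, and the peroxiredoxins Prdx3, Prdx5 and Prdx6. They were taken by name from 55536 annotated genes, and all 10 were found and passed the count filter. Total RNA had been sequenced from the gastrocnemius, the large calf muscle, of 2 untreated adult males of the strain B6CASTF1/J, aged 8 to 10 months, with 1 library per animal. These mice are a cross between the inbred strains C57BL/6J and CAST/EiJ, so every cell carries an allele of each parent. Both alleles were counted together against the mm10 reference. Whether reads of the CAST/EiJ allele were lost or misassigned against that reference was not tested. The labels number the mice animal 2 (replicate 1) and animal 4 (replicate 2), under a donor identifier that both share. There is no second condition, so the data give the level of each enzyme, the make-up of its transcripts and the difference between the 2 animals.

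Superoxide arises mainly as a by-product of mitochondrial respiration and from oxidases at membranes. Superoxide dismutases convert it to hydrogen peroxide, with copper and zinc in the active site of SOD1 and SOD3 and manganese in that of SOD2. Hydrogen peroxide is then broken down by catalase in peroxisomes, by glutathione peroxidases with glutathione as the electron donor, and by peroxiredoxins through a reactive cysteine. Skeletal muscle produces these oxidants at rest and more of them during contraction.

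Levels are given as TPM, a relative abundance corrected for transcript length, so that genes can be compared. The ± values are SDs over 2 animals. The interval deposited with each TPM is the authors' own interval around a posterior mean TPM. It covers the sampling and assignment of reads within 1 library, and its level is not given in the sources used here. The gene counts summed to 36792619 in replicate 1 and 37752252 in replicate 2. All 8 fast-fibre marker genes were present, with a summed level of 96229 TPM in replicate 1 and 103870 TPM in replicate 2. The summed level of 4 liver markers was at most 0.26 TPM, that of 4 kidney markers at most 0.03 TPM and that of 4 lymphocyte markers at most 0.05 TPM.

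Together the 10 genes held 854 TPM in replicate 1 and 870 TPM in replicate 2. Their median level was 71.9 TPM in replicate 1 and 67.2 TPM in replicate 2, against medians of 0.55 and 0.58 TPM over 21938 nuclear protein-coding genes. Gpx4 was the highest and Sod3 the lowest, and their means lay 136-fold apart. Without Sod3 the other 9 genes lay within an 8.59-fold range. By mean TPM the order was Gpx4, Sod2, Sod1, Prdx3, Prdx5, Prdx6, Cat, Gpx1, Gpx3 and Sod3. The values of neighbours in that order did not overlap between animals, except that the values of Gpx3 enclosed those of Gpx1. The second quantification, which the authors made from the reads with another program, gave the same order of means at 0.780 to 1.04 times the level.

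**Figure D1:**
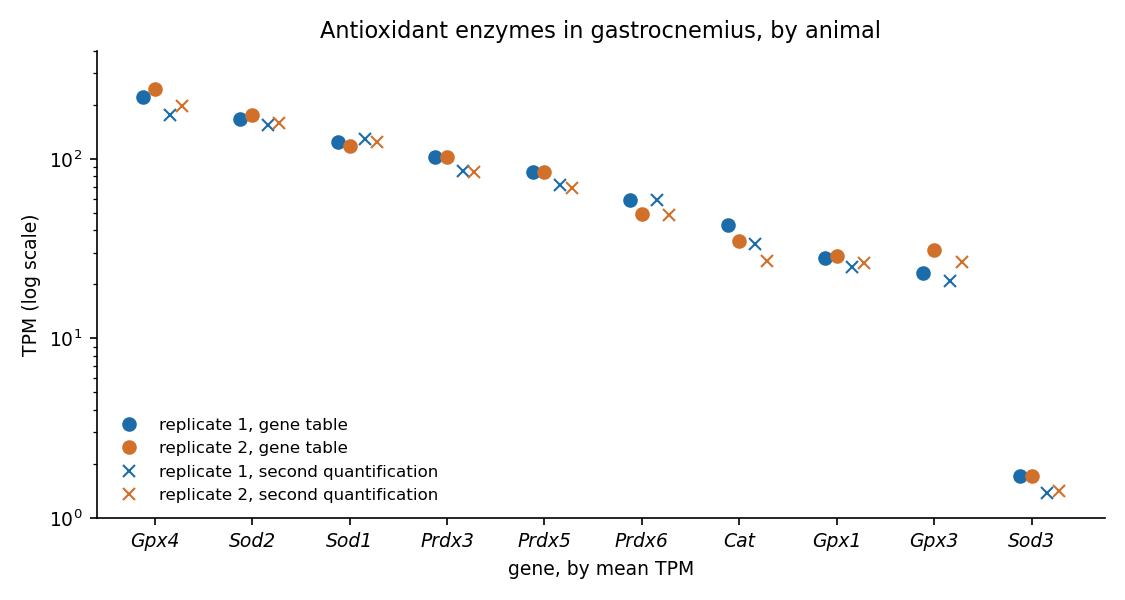
Level of each enzyme in TPM on a log axis, in order of mean TPM. Filled circles are the gene table and crosses the second quantification, with replicate 1 in blue and replicate 2 in orange. The 9 genes from Gpx4 to Gpx3 lie between 23.2 and 245 TPM in the gene table, and Sod3 lies at 1.71 and 1.72 TPM.

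By class, the 3 superoxide dismutases held 293.1 TPM in replicate 1 and 293.9 TPM in replicate 2. The 3 glutathione peroxidases held 271 and 305 TPM, and the 3 peroxiredoxins 247 and 237 TPM. Catalase alone held 42.6 and 35.0 TPM, which was 4.50 ± 0.690% of the summed level of the 10 genes. The 2 genes whose products are mainly secreted, Sod3 and Gpx3, made up 3.34 ± 0.596% of that sum. In bulk tissue, fewer cells of a type and less RNA per cell cannot be told apart.

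Among the superoxide dismutases, the gene of the mitochondrial enzyme had the highest level when all of its transcripts were summed. Sod2 (ENSMUSG00000006818.5, chromosome 17, 13006846 to 13040063, plus strand, mm10), the manganese enzyme of the mitochondrial matrix, had 167 TPM in replicate 1 and 174 TPM in replicate 2, from 9952 and 10965 counts. It ranked 311 and 298 among nuclear protein-coding genes. Sod1 (ENSMUSG00000022982.10, chromosome 16, 90220754 to 90226329, plus strand), the copper and zinc enzyme of the cytosol, had 125 and 118 TPM, from 1721 and 1849 counts. Every value of Sod2 lay above every value of Sod1. Sod2 made up 58.1 ± 1.79% of the summed dismutase level and Sod1 41.3 ± 1.79%. Sod3 (ENSMUSG00000072941.5, chromosome 5, 52363791 to 52371418, plus strand), the secreted enzyme that binds to the extracellular matrix, had 1.71 and 1.72 TPM, from 157 and 179 counts. It was 0.584 ± 0.00140% of the dismutase sum and ranked 9032 and 9010.

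The transcripts of Sod2 were of unequal kind. Sod2-201, which is 5861 bases long with 666 coding bases in 5 exons and 4963 bases after its stop codon, was the only Sod2 transcript annotated as coding with both a start and a stop codon. It had 49.6 TPM in replicate 1 and 46.1 TPM in replicate 2, which was 29.8% and 26.4% of the gene's TPM. Sod2-207, a processed transcript of 1138 bases that lacks the exon with the start codon, had 82.7 and 88.2 TPM, or 49.6% and 50.6%. The deposited intervals of these 2 transcripts did not overlap in either animal. They ran from 47.0 to 49.5 TPM for Sod2-201 and from 76.1 to 84.9 TPM for Sod2-207 in replicate 1, and from 43.9 to 46.1 TPM and from 81.8 to 90.2 TPM in replicate 2. By counts the order was the opposite. Sod2-201 took 7196 and 7579 of the gene's counts, 70.7 ± 2.25%, and Sod2-207 took 2162 and 2612. Counting coding transcripts with a start and a stop codon alone, Sod1 lay above Sod2. Sod1-201 had 125 TPM in replicate 1 and 117 TPM in replicate 2. That order rests on which transcripts are annotated as complete, since no such Sod2 transcript ends where Sod2-207 does. Sod2-204, a retained-intron transcript of 644 bases, followed in TPM with 31.5 and 36.8.

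The exons of Sod2-207 lie almost wholly within those of Sod2-201. Of its 1108 words of 31 bases, 27 occurred in no other Sod2 transcript, while Sod2-201 had 4560 such words of 5831. Sod2-207 ends 445 bases after the stop codon that Sod2-201 uses. The second quantification also put Sod2-207 first, at 40.9% and 41.6% of TPM, with Sod2-201 at 27.9% and 25.2%. A read outside those 27 words that falls in Sod2-207 also matches another Sod2 transcript. Sod2 as a whole shared words with other genes, and 73.4% of its words were its own. The shared part, found mostly in the annotated genes Rps6ka2 and AC166110.4, lay mostly in Sod2-202 and Sod2-208, which each held at most 1.09% of the TPM in the gene table. Only 3.62% of the words of Sod2-201 and none of those of Sod2-207 occurred in another gene.

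**Figure D2:**
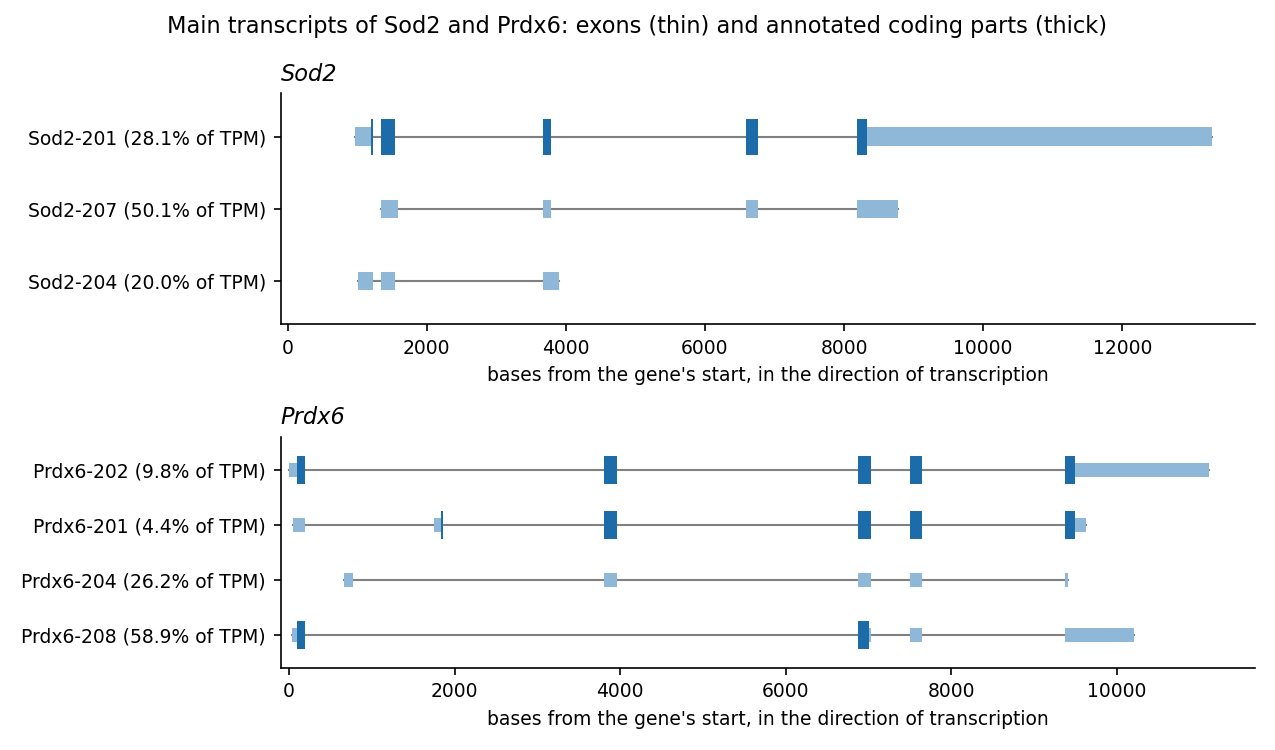
Exons (thin boxes) and annotated coding parts (thick boxes) of the main transcripts of Sod2 and Prdx6, drawn to scale in bases from the start of each gene in the direction of transcription. Sod2-207 has no exon with the start codon and a shorter last exon than Sod2-201, and Prdx6-208 lacks an exon that the other 3 Prdx6 transcripts hold.

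Sod1 was simple by comparison. Sod1-201, the coding transcript of 641 bases, held 99.8% and 99.7% of the TPM, and the retained-intron transcript Sod1-202 the rest. Of the words of Sod1, 94.6% were its own, and most of the others were shared with the gene entry Gm8566, which had 1.04 and 3.10 counts. Of the words of Sod1-201 alone, 35.4% occurred in another gene. Scaf4 overlaps Sod1 on the opposite strand. Sod3 has 1 annotated transcript, and 99.5% of its words were its own.

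The 3 glutathione peroxidases contain selenocysteine, an amino acid that is inserted at a TGA codon which otherwise stops translation. The coding sequence around that codon is shown here because it sets these 3 genes apart from the other 7, and because the transcripts of Gpx1 differ in whether their annotated reading frame includes it. Each line gives 45 bases of the coding strand from the annotated transcript (GENCODE M21, mm10), 5′ to 3′, with the selenocysteine TGA in capitals.
Gpx1-201 (chr9:108339430-108339474, plus strand, codon 47): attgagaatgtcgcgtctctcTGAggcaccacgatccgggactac
Gpx3-201 (chr11:54907235-54907279, plus strand, codon 73): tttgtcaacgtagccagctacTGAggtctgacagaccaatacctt
Gpx4-202 (chr10:80054716-80054760, plus strand, codon 73): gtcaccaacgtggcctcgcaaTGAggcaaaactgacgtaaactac
Position by position, the windows of Gpx1 and Gpx3 were identical at 21 of 45 bases, those of Gpx1 and Gpx4 at 25, and those of Gpx3 and Gpx4 at 24. In all 3 the codon is followed by gg.

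Gpx4 (ENSMUSG00000075706.10, chromosome 10, 80047166 to 80056439, plus strand), which reduces lipid hydroperoxides in membranes, was the most abundant of the 10 genes. It had 220 TPM in replicate 1 and 245 TPM in replicate 2, from 3619 and 4773 counts, and ranked 223 and 199 among nuclear protein-coding genes. It made up 80.8 ± 0.458% of the summed level of the 3 glutathione peroxidases. Gpx1 (ENSMUSG00000063856.7, chromosome 9, 108338903 to 108340343, plus strand), which reduces hydrogen peroxide mainly in cytosol and mitochondria, had 28.1 and 28.6 TPM, from 514 and 629 counts. It made up 9.86 ± 0.686% of the class. Gpx3 (ENSMUSG00000018339.11, chromosome 11, 54902453 to 54910377, plus strand), the plasma enzyme, had 23.2 and 31.01 TPM, from 873 and 1322 counts, or 9.36 ± 1.14% of the class. Gpx1 and Gpx3 could not be ordered, since Gpx3 lay below Gpx1 in replicate 1 and above it in replicate 2.

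The coding transcripts of Gpx4 share the selenocysteine codon and differ in where the reading frame starts. Their first 30 coding bases are shown for this reason, with the start codon in capitals.
Gpx4-201 (759 coding bases, chr10:80054049-80054078): ATGggccgcgcggccgcccgcaagcgggga
Gpx4-202 (591 coding bases, chr10:80053632-80053661): ATGagctggggccgtctgagccgcttactt
Gpx4-207 (471 coding bases, chr10:80054550-80054579): ATGcacgaattctcagccaaggacatcgac
Gpx4-202 had 113 TPM in replicate 1 and 137 TPM in replicate 2, which was 51.3% and 55.9% of the gene. Gpx4-207 had 59.4 and 65.3 TPM, or 27.0% and 26.6%. Gpx4-201 had 0.56 and 0.49 TPM, or 0.25% and 0.20%, so the reading frame with the longest start was at the low end in both animals. A retained-intron transcript of 280 bases, Gpx4-203, was given 47.0 and 42.4 TPM, or 21.4% and 17.3%, from 213 and 218 counts.

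The second quantification gave a different split for Gpx4. There Gpx4-202 held 94.1% and 98.4% of the TPM, Gpx4-207 had 9.68 and 0.623 TPM, and Gpx4-203 was listed at 0 in both animals. The gene's total was also lower there, at 176 and 197 TPM, although its estimated counts were higher, at 115% of those in the gene table. Of the words of Gpx4, 61.1% were its own, the lowest share of the 10 genes. Of the words of Gpx4-202 74.1% occurred in another gene, and of those of Gpx4-207 85.0%. Most of the words of Gpx4 that were not its own were shared with the pseudogene Gpx4-ps2. The gene table gave that pseudogene 405 and 419 counts and the second quantification 33.8 and 6.48. The mean level of Gpx4 in the second quantification was 0.801 times that in the gene table, and it was first in the order in both.

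By TPM in the gene table, the main transcript of Gpx1 was not the same in both animals. In replicate 1 Gpx1-204 had 14.5 TPM, or 51.6%, and Gpx1-201 had 10.8 TPM, or 38.4%. In replicate 2 Gpx1-204 had 12.5 TPM, or 43.6%, and Gpx1-201 had 14.2 TPM, or 49.6%. The deposited intervals of the 2 transcripts overlapped in both animals, from 8.30 to 12.9 against 10.5 to 17.4 TPM in replicate 1 and from 10.9 to 15.7 against 9.00 to 15.2 TPM in replicate 2. No order between them can be read from these libraries. Of the Gpx1 transcripts, Gpx1-201 alone has the selenocysteine codon in its annotated reading frame. In Gpx1-202 and Gpx1-204 the annotated frame begins downstream of it. The share of Gpx1 TPM in the selenocysteine form was thus 44.0 ± 7.93% in the gene table and 55.1 ± 1.08% in the second quantification. By counts it was 56.9 ± 7.92%. In the second quantification (55.9% and 54.3%) and by counts (51.3% and 62.5%), Gpx1-201 was first in both animals. Gpx1-204 has 21 words of its own of 623, and Gpx1-201 has 93 of 1042.

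Gpx3 came from a single transcript. Gpx3-201, with 678 coding bases including the selenocysteine codon, held 100% of the TPM in both animals in the gene table, and 96.3% and 100% in the second quantification. Almost all of its words, 99.4%, were its own.

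Of these 3 peroxiredoxins, the 2 that are known from mitochondria had the higher levels, while Prdx1, a cytosolic peroxiredoxin outside the 10 genes, lay above both. Prdx3 (ENSMUSG00000024997.7, chromosome 19, 60864051 to 60874556, minus strand), which is confined to the mitochondrial matrix, had 102.8 TPM in replicate 1 and 102.1 TPM in replicate 2, from 3568 and 4015 counts. Prdx5 (ENSMUSG00000024953.17, chromosome 19, 6906697 to 6910106, minus strand), found in mitochondria, peroxisomes and cytosol, had 85.0 and 84.9 TPM, from 1865 and 2057 counts. Prdx6 (ENSMUSG00000026701.15, chromosome 1, 161240112 to 161251219, minus strand), a mainly cytosolic enzyme with a single reactive cysteine that also has phospholipase activity, had 58.9 and 49.6 TPM, from 1624 and 1588 counts. No values overlapped between the 3 genes. They made up 42.4 ± 1.06%, 35.2 ± 1.02% and 22.4 ± 2.08% of the summed level of these 3 genes in that order.

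The transcript of Prdx6 with the highest level in both animals is not annotated to give the enzyme. Prdx6-208, of 1294 bases and annotated for nonsense-mediated decay, had 33.4 TPM in replicate 1 and 30.3 TPM in replicate 2, which was 56.7% and 61.2% of the gene. It lacks the second exon of Prdx6-202, a coding exon of 157 bases (chromosome 1, 161247257 to 161247413). That length is not a multiple of 3, so the reading frame changes at the new junction. The junctions of the 2 transcripts after the first exon are shown on the minus strand. The 20 bases of the first exon are in lower case and the 20 bases of the next exon in capitals.
Prdx6-202, exon included: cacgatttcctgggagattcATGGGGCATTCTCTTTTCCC
Prdx6-208, exon skipped: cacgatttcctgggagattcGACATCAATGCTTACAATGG
Prdx6-208 has 29 words of its own of 1264, and the others also occur in other Prdx6 transcripts. The 2 transcripts also end at different places. Prdx6-208 runs 706 bases past the stop codon of Prdx6-202, and Prdx6-202 itself runs 1609 bases past it. No annotated Prdx6 transcript that holds the skipped exon ends where Prdx6-208 does. How far this end, and not the junction, set the share of Prdx6-208 was not tested.

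Prdx6-204, a processed transcript of 603 bases, had 16.3 and 12.3 TPM, or 27.6% and 24.8% of the gene. The 2 transcripts annotated as coding with a start and a stop codon were lower. Prdx6-202, of 2387 bases, had 5.67 and 4.98 TPM, and Prdx6-201 had 2.99 and 1.82 TPM. Together they held 14.2 ± 0.684% of the TPM and 23.7 ± 0.577% of the counts. The deposited intervals placed Prdx6-208 above Prdx6-202 in both animals, at 29.5 to 34.7 TPM against 4.52 to 6.59 TPM in replicate 1 and at 27.0 to 31.7 TPM against 3.98 to 5.88 TPM in replicate 2. The second quantification also put Prdx6-208 first, at 50.5% and 55.4%, with the 2 coding transcripts at 5.56 ± 0.260% together. Summed over all transcripts that hold the exon, the included form had 40.7 ± 3.07% of the TPM in the gene table and 46.8 ± 3.38% in the second quantification. Whether the exon was skipped that often in the RNA was not tested, since the tables hold no reads over junctions.

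Prdx5 was divided differently by the 2 quantifications, and its mean total was 84.9 TPM in the gene table and 70.1 TPM in the second quantification. Prdx5-201, with 630 coding bases, had 49.4% and 47.0% of the TPM in the gene table and 60.4% and 60.2% in the second quantification. The next transcript was Prdx5-205, which has no annotated start codon, at 36.8% and 40.1% in the gene table, and it was listed at 0 in the second quantification. There Prdx5-203 came next, at 28.3 and 26.9 TPM. Trmt112 overlaps Prdx5 on the opposite strand. Prdx3 has 1 annotated transcript, and all of its words were its own, as were those of Prdx5.

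Catalase (Cat, ENSMUSG00000027187.10, chromosome 2, 103453849 to 103485160, minus strand), the heme enzyme of peroxisomes, had 42.6 TPM in replicate 1 and 35.0 TPM in replicate 2, from 2196 and 1961 counts. It ranked 1253 and 1493 among nuclear protein-coding genes. The full-length transcript Cat-201, with 1581 coding bases in 13 exons, held 74.6% and 70.2% of the TPM. Cat-202, a coding transcript of 779 bases with 528 coding bases, held 25.5% and 29.8%, from 185 and 202 counts. Cat-202 has 20 words of its own of 749. By counts Cat-201 held 90.6%.

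**Figure D3:**
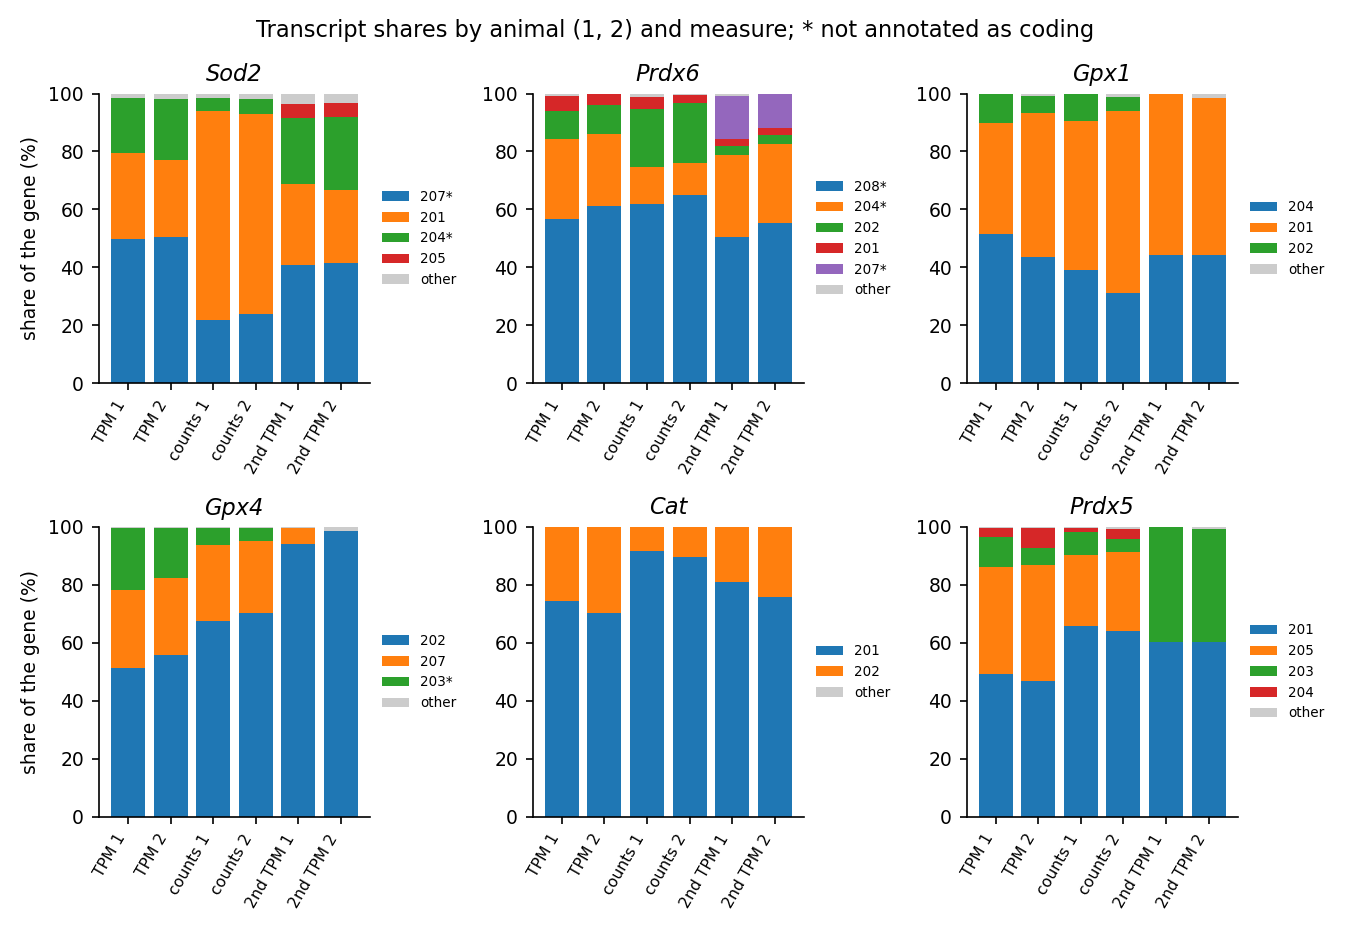
Share of each transcript in its gene, in percent, for the 6 genes with more than 1 transcript in use. In each panel the bars give the TPM share in replicates 1 and 2, the share of counts in replicates 1 and 2, and the TPM share of the second quantification in replicates 1 and 2. Colours are transcripts by their number, and an asterisk marks those not annotated as coding. Sod2-201 holds 70.7% of the Sod2 counts on average but 28.1% of the TPM, and Gpx4-202 holds 53.6% of the TPM in the gene table but 96.3% in the second quantification.

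Of the 8 genes with more than 1 transcript, 7 had the same highest transcript in both animals, Gpx1 being the exception. Over all 5833 genes with more than 1 transcript and at least 5 TPM in both animals, 90.1% did. The highest transcript was not annotated as coding for Sod2 and Prdx6, 2 of 8, against 7.29% of 5760 such protein-coding genes. With 8 genes chosen by name these shares are descriptions, and nothing particular to the enzymes is read from them. The median share of the highest transcript was 56.3% over the 8 genes and 68.7% over the 5760.

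The 2 animals were compared next. Counts were scaled to library size by the trimmed mean of M values, and each gene was tested with an exact two-sided binomial test with Benjamini-Hochberg adjustment over 14094 genes. With 1 library per animal this test compares 2 libraries, and it has no replicate check. Genes past an adjusted p of 0.05 are described as called. Of the 10 enzymes, 4 were called, against 21.6% of all genes tested. Genes with many counts were called more often, 26.4% of those averaging at least 100 counts and 34% of those averaging at least 500, and 9 of the 10 enzymes averaged at least 500. Catalase and Prdx6 were higher in replicate 1, 2 of 10 against a background of 10.8%, and Gpx3 and Gpx4 were higher in replicate 2, 2 of 10 against 10.7%. With total counts 1 enzyme was called in favour of replicate 1 and 5 in favour of replicate 2, and with spike-ins 6 and 2. The median log2 ratio of replicate 2 over replicate 1 was 0.01 over the 10 genes and 0.00 over all genes tested.

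With the trimmed mean Gpx3 lay furthest from 0, while with spike-ins catalase (-0.46) and Prdx6 (-0.33) lay further from 0 than Gpx3 (0.30). Gpx3 had 873 counts in replicate 1 and 1322 in replicate 2, a log2 ratio of 0.45 (95% counting interval 0.32 to 0.57, adjusted p = 2.41e-11 by the exact binomial test), or 1.36-fold higher in replicate 2. Its deposited intervals, 21.4 to 24.4 TPM and 28.9 to 32.2 TPM, did not overlap. Of the 9513 genes that averaged at least 100 counts, 6.82% had a ratio at least as far from 0. Gpx4 was 1.19-fold higher in replicate 2, with a log2 ratio of 0.25 (0.19 to 0.31, adjusted p = 1.69e-13 by the exact binomial test), yet its deposited intervals in TPM, 202 to 230 and 227 to 253, overlapped.

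Catalase was 1.24-fold higher in replicate 1, with 2196 counts against 1961. Its log2 ratio was -0.31 (95% counting interval -0.40 to -0.23, adjusted p = 7.39e-11 by the exact binomial test). Its deposited intervals, 38.9 to 44.6 TPM and 31.7 to 36.7 TPM, did not overlap. Prdx6 was 1.14-fold higher in replicate 1, at a log2 ratio of -0.18 (-0.28 to -0.08, adjusted p = 0.00287 by the exact binomial test), and its intervals of 53.4 to 60.9 and 45.2 to 51.4 TPM did not overlap either.

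With the trimmed mean the other 6 genes were not called, which does not show that they were equal. The narrowest interval was that of Sod2, whose log2 ratio was -0.01 (-0.05 to 0.03). Prdx3 was at 0.02 (-0.05 to 0.09), Prdx5 at -0.01 (-0.10 to 0.08) and Sod1 at -0.05 (-0.14 to 0.05). At that scaling the intervals of these 4 genes excluded a difference of 1.2-fold at the level of counting error. Gpx1, at 0.14 (-0.03 to 0.31), and Sod3, at 0.04 (-0.28 to 0.36), had fewer counts, and their intervals included it. Under the spike-in scaling Sod1, Sod2, Prdx3 and Prdx5 were called higher in replicate 1, with Sod1 furthest from 0 at -0.20. Under the scaling by total counts Sod2, Prdx3 and Gpx1 were called higher in replicate 2.

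Of the 9513 genes that averaged at least 100 counts, 18.8% were at least 1.2-fold apart, and 2 of the 10 enzymes were. Catalase was the member higher in replicate 1 (background 9.5%) and Gpx3 the member higher in replicate 2 (background 9.29%). The ratios depend on the scaling. With total counts Gpx3 and Gpx4 were the 2 enzymes past 1.2-fold, and with spike-ins catalase, Prdx6 and Gpx3 were. Scaling by total gene counts moved the median of all genes tested by 0.11 on the log2 scale, and scaling by the spike-ins by -0.15. Of all called genes, 49.7% were higher in replicate 2 with the trimmed mean, 83.2% with total counts and 12.9% with spike-ins. Catalase and Prdx6 were lower in replicate 2, and Gpx3 and Gpx4 higher, under every scaling tried. Prdx6 lost its call with total counts, where its log2 ratio was -0.07 (adjusted p = 0.323 by the exact binomial test). With an assumed biological variation of 0.1 between animals, in edgeR's exact test, none of the 10 enzymes was called, and 1 had an unadjusted p under 0.05.

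**Figure D4:**
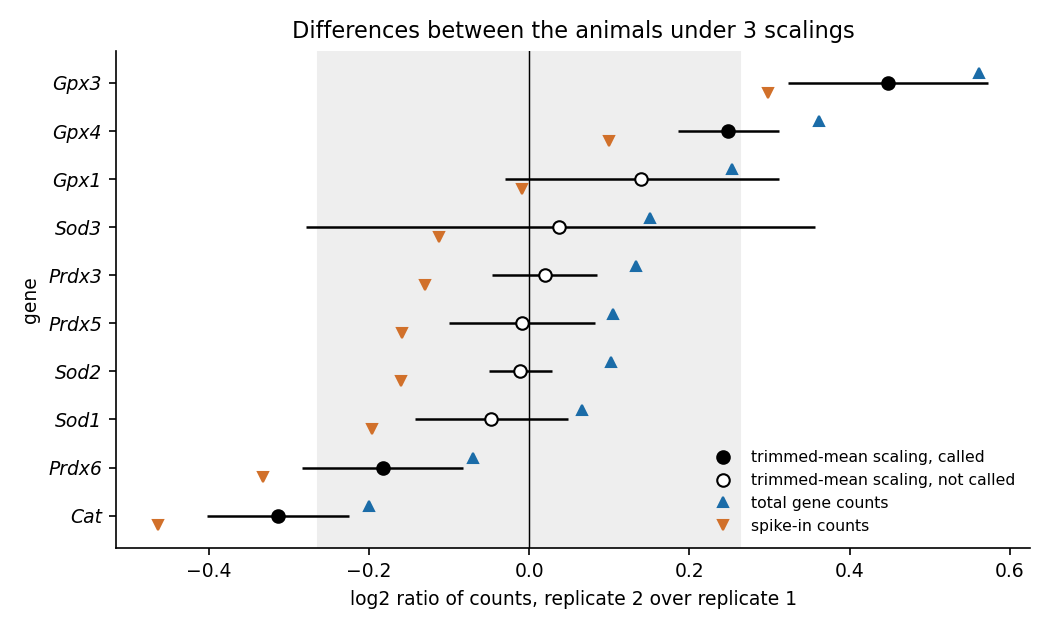
Log2 ratio of counts, replicate 2 over replicate 1, for each enzyme. Circles are the trimmed-mean scaling with 95% counting intervals, filled where called, upward triangles the scaling by total gene counts and downward triangles the scaling by spike-ins, and the grey band spans 1.2-fold either way. Gpx3 lies right of 0 and catalase left of 0 under all 3 scalings, while Sod1, Sod2, Prdx3, Prdx5, Sod3 and Gpx1 change side with the scaling.

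The libraries also differed in markers of fibre and cell types. All 8 slow-fibre genes were called higher in replicate 1, with a summed level of 1644 TPM against 1098 TPM, and they were so under each of 5 scalings and quantifications. All 8 fast-fibre genes were called higher in replicate 2, except with spike-ins, where 4 were higher in each animal. All 6 smooth muscle and pericyte genes (101 against 133 TPM in sum), 4 of 5 adipocyte genes (22.0 against 30.9 TPM), 3 of 6 endothelial genes and 3 of 5 tested erythroid genes were higher in replicate 2. With spike-ins the counts higher in replicate 2 were 5, 2, 0 and 0 in that order, and 1 erythroid gene was higher in replicate 1. Of 6 fibroblast genes 1 was higher in replicate 1 and 2 in replicate 2, 1 of 4 Schwann cell genes was higher in replicate 2, and none of 5 tested macrophage genes was called. Catalase and Prdx6 thus moved between the animals in the direction of the slow-fibre genes, and Gpx3 and Gpx4 in that of the fast-fibre, smooth muscle and pericyte, adipocyte, endothelial and erythroid genes that were called. The part of these cell types in the 4 differences was not tested.

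Genes that supply or regulate these enzymes were described in 12 lists, which held 138 annotated genes (some in more than 1 list). Of the 124 that were tested, 18 had calls in favour of replicate 1 and 14 in favour of replicate 2. The split was 10 and 35 with total counts and 41 and 5 with spike-ins. The lists were drawn up with earlier results of these data known, and their counts are read beside the background of 21.6%.

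The list with the most calls was that of Nrf2 (Nfe2l2), the transcription factor of the oxidant response, and its classical targets. The list also held Keap1, Bach1 and Mafg, which are regulators or partners of Nrf2. Of 14 tested genes, 8 were higher by the test in replicate 1 and 1 in replicate 2, with a median log2 ratio of -0.14. Nfe2l2 itself, Bach1 and Mafg were among the 8, so these were not all targets. The split was 7 to 1 with DESeq2 size factors, 5 to 3 with total counts, 11 to 0 with spike-ins and 7 to 1 in the second quantification. Srxn1, sulfiredoxin, which restores some over-oxidised peroxiredoxins, had 27.7 TPM in replicate 1 and 8.53 TPM in replicate 2, from 1722 and 660 counts. Its log2 ratio of -1.53 (adjusted p = 1.15e-131 by the exact binomial test) was the furthest from 0 in this list and in the thioredoxin list. Fth1, the heavy chain of the iron store ferritin, was the most abundant at 912 and 988 TPM and was the gene higher in replicate 2, at 0.09 (adjusted p = 5.69e-08). Me1, malic enzyme, came next at 132 and 124 TPM and was not called. Of the 10 enzymes, catalase and Prdx6 were called higher in the same animal as Srxn1, against 10.8% of all genes tested. With 2 animals a shared direction cannot show a link, and any part of Nrf2 in it was not tested.

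The thioredoxin system reduces most, but not all, peroxiredoxins. Of its 9 genes, 4 were called higher in replicate 1 and none in replicate 2 (0 also with DESeq2 size factors, 3 with total counts), while the list's median log2 ratio was 0.07. Txnip, the inhibitor of thioredoxin, had 202 and 170 TPM, at a log2 ratio of -0.27 (adjusted p = 2.16e-45 by the exact binomial test). Txn2, the mitochondrial thioredoxin that serves Prdx3, had 88.4 and 83.0 TPM, at -0.11 (adjusted p = 0.0279).

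Of the other peroxiredoxins and peroxidases, 3 of 8 were listed at 0 in both animals. Prdx1, a cytosolic peroxiredoxin, had 136 and 124 TPM and was higher in replicate 1 at a log2 ratio of -0.13 (adjusted p = 0.00210 by the exact binomial test), and it was the list's only call (with total counts, 1 gene was instead higher in replicate 2). Prdx2 had 78.7 and 73.8 TPM and was not called. Prdx1 lay between Sod2 and Sod1 in level in both animals and Prdx2 between Prdx5 and Prdx6, while the median of the 8 genes was 1.79 ± 0.103 TPM.

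In glutathione synthesis and recycling, 3 of 11 tested genes were higher in replicate 1 (with total counts, 1 in replicate 1 and 2 in replicate 2). Glrx3, a glutaredoxin, was highest at 59.2 and 60.3 TPM and was not called. Glrx2, the mitochondrial glutaredoxin, followed at 36.9 and 36.5 TPM and was called at a log2 ratio of -0.23. Among the genes averaging at least 100 counts, Chac1, which degrades glutathione, was furthest from 0 at -0.35 (adjusted p = 6.96e-06 by the exact binomial test). Of 13 tested glutathione transferases 2 were higher in replicate 2 (with spike-ins, 2 in each animal). Gstp1 had 188 and 174 TPM and Gstm1 68.6 and 76.6 TPM, neither called. Among the transferases averaging at least 100 counts, the microsomal enzyme Mgst1 was furthest from 0 at 0.38 (adjusted p = 5.44e-05 by the exact binomial test). Gstt2, with 27 and 70 counts, was at 1.19 and was the other one called.

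NADPH is the source of electrons for both systems. Of its 12 entries (Nnt has 2), 1 was higher in replicate 1 and 3 in replicate 2 (4 and 1 with spike-ins). The 2 entries of Nnt were called in opposite directions. One had 997 and 890 counts, at a log2 ratio of -0.31, and was the call in favour of replicate 1. The other had 1509 and 2002 counts, at 0.26. The mitochondrial isocitrate dehydrogenase Idh2 had 122 and 120 TPM and was not called, and its cytosolic counterpart Idh1 was furthest from 0 at 0.47 (adjusted p = 0.000741 by the exact binomial test) with 4.77 and 6.52 TPM.

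For the metals of the dismutases, 2 of 7 genes were higher in replicate 1. Ccs, the chaperone that gives copper to SOD1, had 7.43 and 8.03 TPM and the copper chaperone Atox1 17.4 and 18.3 TPM, neither called. Slc39a14, which carries manganese and zinc, had 7.59 and 4.86 TPM, at a log2 ratio of -0.45 (adjusted p = 8.21e-05 by the exact binomial test).

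Among the 17 tested selenoprotein genes other than the 3 peroxidases, 2 were called in favour of replicate 1 and 4 in favour of replicate 2 (6 and 1 with spike-ins). Selenow, a small selenoprotein abundant in muscle, had 718 and 728 TPM, above any of the 10 enzymes. Msrb1, which repairs oxidised methionine, had 59.9 and 80.1 TPM, at a log2 ratio of 0.42 (adjusted p = 3.99e-14 by the exact binomial test). Among those averaging at least 100 counts, Selenoh was furthest from 0 at 0.58 (adjusted p = 0.0202 by the exact binomial test). Dio2, with 53 and 28 counts, was at -1.05 and was called. Of 8 tested genes of the selenocysteine machinery 1 was called, Sepsecs at 0.31, and none was in the second quantification (with spike-ins, 1 was called in favour of replicate 1). Pstk, the kinase of the selenocysteine tRNA, had 18.6 and 17.6 TPM, and Sephs2, which makes the selenium donor, 17.3 and 18.1 TPM.

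The listed oxidant sources, which include no gene of the respiratory chain, were mostly low. The median of the 14 genes was 0.320 ± 0.0919 TPM, and 1 of 10 tested genes was called, higher in replicate 2. Xdh, xanthine dehydrogenase, was highest at 17.3 and 16.4 TPM, followed by the monoamine oxidase Maob at 6.79 and 6.81 TPM. Of the 17 peroxisome genes, which build or fill the organelle that holds catalase, 1 was higher in each animal (7 and 0 with spike-ins). Pex19 had 32.2 and 31.2 TPM and was not called, and Pex16 was furthest from 0 at 0.41 (adjusted p = 0.0125 by the exact binomial test). Of 10 tested metallothionein and repair genes 1 was called, Park7, at 355 and 377 TPM and a log2 ratio of 0.11 (with spike-ins, 2 genes were higher in replicate 1). Msrb3 had 61.7 and 62.1 TPM and Msra 9.88 and 9.89 TPM.

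By the list medians, 2 of the 12 lists, the Nrf2 list and the metal supply, were negative under every scaling and in the second quantification. The other 10 changed sign under at least 1 of them, since with spike-ins all 12 medians were negative and with total counts 10 were positive.

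**Figure D5:**
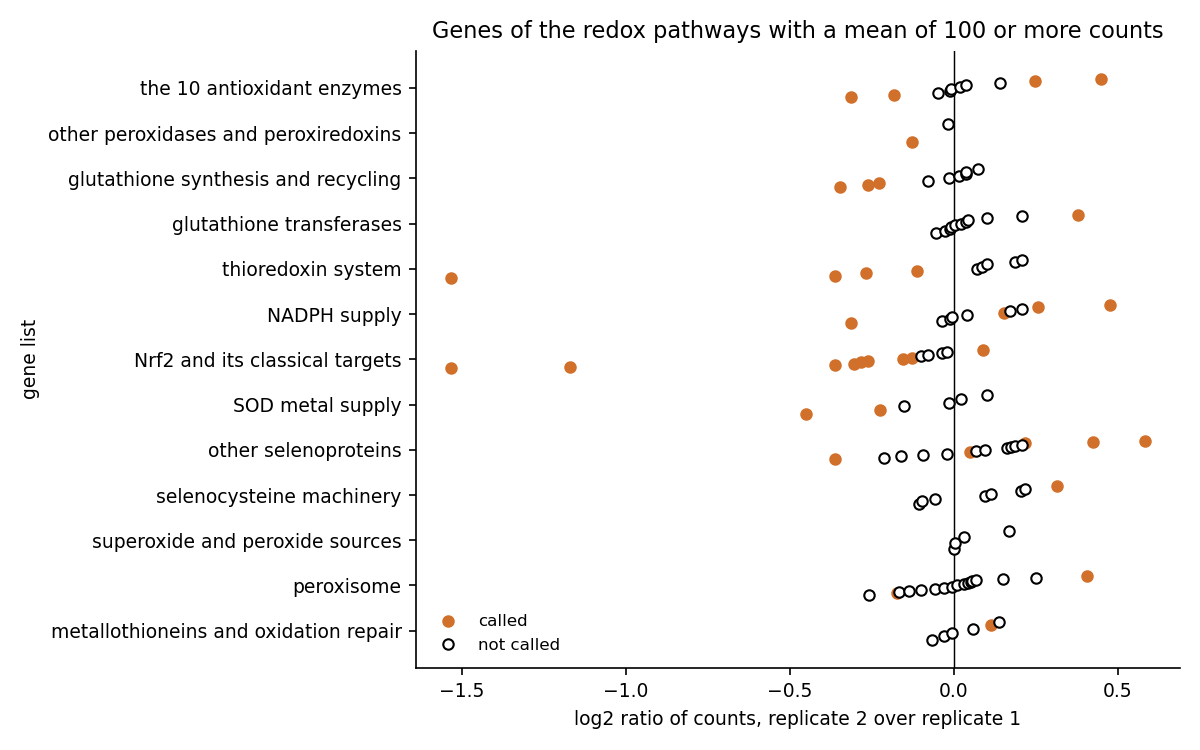
Log2 ratio of counts, replicate 2 over replicate 1, for the 10 enzymes and for the genes of 12 lists that averaged at least 100 counts, 1 point per gene. Filled points were called by the exact binomial test. Most points lie within 0.5 of 0, and Srxn1, at -1.53 in both the thioredoxin and the Nrf2 list, lies furthest out.

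The promoter sequences given by RefSeq (300 bases, from 250 before to 50 after the start) covered 8 of the 10 genes in 11 windows. Sod3 and Prdx6 had no window and were not searched, and Gpx4 had several. The letters TGACNNNGC, searched on both strands as the core of the element that Nrf2 is known to bind, occurred in 1 of the 11, that of Sod1, and in 12.4% of 32851 windows of all genes. Median GC content was 62% in the 11 windows and 52.7% in all. A match here is a description of letters and not of binding.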

How the data were processed

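Per the labels' protocols, directional libraries were made from 300 ng of ribosome-reduced total RNA per animal with ERCC spike-ins. Per the deposited README, the tables used mm10 with GENCODE M21. Per the file headers, the deposited gene and transcript tables carry RSEM's columns and the second transcript table kallisto's. The sources used here do not give aligner, versions or strand setting. The deposited expected counts (estimated reads) are not normalized. The deposited TPM values are scaled by length over all entries, and the percent column is, per the file headers, each transcript's share of its gene. Entries that are not genes (0.257% and 0.308% of counts) stayed out. Of 55536 genes, 55450 that are also in the second quantification were used. The libraries count as 2 animals by their labelled numbers (chi-square per degree of freedom between libraries 61.2). Labels name no batch. If the shared donor identifier marks 1 animal, the spread is one within that animal and not between animals.

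Expected counts were rounded and scaled by TMM (edgeR 4.0.16, R 4.3.3). The test was a conditional binomial test, exact and two-sided, on genes averaging at least 10 counts, with Benjamini-Hochberg adjustment at 0.05. Ratios used a prior of 1 count, and folds were counted for genes averaging at least 100 counts. Intervals are Clopper-Pearson at 95% and cover counting error only. At this depth a count of 0 allows up to 3 counts, 0.0815 and 0.0795 CPM (counts scaled to library size). Sequence sharing was counted over 31-base words of annotated transcripts. On simulated counts for 14094 genes the test called 50% of genes changed 1.2-fold, 92% at 1.5-fold and 0.0432% of unchanged genes. The simulated counts held counting noise only, with no variation between animals, so these shares are not error rates for differences between animals. Scaling by spike-ins, by total counts or by DESeq2 1.42.0 size factors was tried as an alternative, as were other filters and priors, edgeR's exact test at a variation of 0.1, and the second quantification. Other steps used Python 3.11.15, scipy 1.17.1 and pandas 2.3.3. Members, the 12 pathway lists and 12 marker lists were chosen with earlier results of these data known. The text names all 10 members and, per pathway list, the 2 genes highest in TPM and the gene averaging at least 100 counts whose log2 ratio lay furthest from 0. Genes that overlap or share words with a member are named as well. Some of what this rule takes is not reported here. With 2 samples no likeness of pattern was measured.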

Additional observations from a re-analysis of the deposited data

How the results depend on the processing

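The median level of the 10 enzymes, 69.6 ± 3.36 TPM, was 62.0 TPM in the second quantification and 160 TPM with nuclear protein-coding genes as the denominator, and 67.2 to 71.9 TPM with either animal left out. The median share of the highest transcript, 56.3%, was 69.4% in the second quantification and 70.9% over protein-coding transcripts. The 4 called enzymes became 6 with total counts (4357 genes in all against 3038), 8 with spike-ins (5015 genes in all) and 0 with an assumed biological variation of 0.1 (289 genes in all), where Cat had an adjusted p of 0.897 and Gpx3 of 0.517 by edgeR's exact test. Against the main scaling, Sod2 turned to 0.10 with total counts and Prdx3 to -0.13 with spike-ins, both called there. Each scaling moves every gene by nearly the same amount, 0.11 with total counts and -0.15 with spike-ins, and these turns are of that size. The ratios of the other enzymes moved by the same amounts with total counts and with spike-ins. For the changes under other settings the cause was not tested. Other count minimums, DESeq2 size factors, a prior of 5 counts and the second quantification left the 4 calls at 4. No paired analysis was possible because the labels give 1 group. With an animal left out no ratio remains. How far few words of their own and depth limit the split between transcripts of Sod2, Prdx6, Prdx5, Gpx1, Gpx4 and Cat was not tested.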
